A study of Mus musculus with 16 samples.

Results

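The genes described here are 9 cAMP response and feedback genes, Sik1, Pde4d, Slc25a25, Atf3, Fosl2, Creb1, Crem, Crtc2 and Creb3l3, of 13181 genes that held at least 1 cluster. They were chosen by name for their place in the cAMP pathway, with earlier results of these data known. They were followed in RNA crosslinked to PGC-1α in primary hepatocytes of C57BL/6J mice. The tested cells spent a night in starvation medium and then 3 h with 200 nM glucagon. The controls are labelled untreated, and no allele or knockdown is named for either group. Below, glucagon stands for that whole treatment. If the controls were not starved, starvation and glucagon cannot be told apart. Ultraviolet light at 254 nm and 400 mJ/cm2 fixed RNA to protein, and single-end eCLIP (enhanced crosslinking and immunoprecipitation) read the RNA out from an upper and a lower band. Immunoprecipitated (IP) libraries existed for glucagon upper band, glucagon lower band, control upper band and control lower band, with 2 replicates each. The 8 input libraries were not analysed here. The labels do not say whether replicates came from separate animals or cultures, so the spread between them may be technical. In such bulk samples fewer cells of a type and less RNA per cell cannot be told apart.

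Glucagon raises cAMP in hepatocytes through a G protein and adenylyl cyclase, and cAMP releases the catalytic subunits of protein kinase A. The kinase phosphorylates CREB, which binds the cAMP response element (CRE) in DNA, and CRTC coactivators enter the nucleus to join it. Several genes switched on this way act as brakes. SIK1 phosphorylates CRTC2 and sends it back to the cytoplasm, PDE4D hydrolyses cAMP, and the ICER products of Crem and ATF3 repress transcription from CRE-like sites. PGC-1α, itself encoded by a cAMP-induced gene, coactivates the fasting programme of liver and carries RNA-binding motifs.

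A cluster is a stretch of piled-up IP reads, and each came with the authors' log2 fold over input and −log10 p. Clusters with a log2 fold of at least 3 and a −log10 p of at least 3 are called enriched peaks. The libraries held 26279 to 260814 clusters and 979 to 7603 enriched peaks, and glucagon lower band replicate 1 was the smallest on both counts. Read depth is unknown, so counts below depend on how many clusters each library gave. Hepatocyte markers had clusters in 8 of 8 cases, with 315 to 651 clusters summed per library. Markers of other liver cells had clusters in 2 of 8 cases for Kupffer cells (4 to 9 per library), 2 of 8 for endothelium (0 to 1), 1 of 8 for stellate cells (0 to 4), 2 of 8 for cholangiocytes (0 to 12) and 0 of 5 for erythroid cells.

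The 9 genes carried 1459 clusters and 65 enriched peaks over the 8 libraries. Of them, 6 had an enriched peak, where 23.1% of all genes with a cluster did. In the authors' reproducible lists 4 of the 9 had a row (Sik1, Atf3, Pde4d and Slc25a25), against a background of 9.38%. The members also held more clusters than most genes, with a median of 131 against 35, so these shares are not adjusted for how much RNA of each gene was recovered. Because the members were chosen with earlier results of these data known, the shares are a description and no test. Members contributed 19 of 8478 list rows, and 14 of the 19 lay in Sik1. The glucagon upper band list held Sik1 (9 rows), Pde4d (1) and Slc25a25 (1), where 5.38% of genes had a row, and the glucagon lower band list held Sik1 (2), where 0.865% did. The control upper band list held Sik1 (2) and Atf3 (2), against 7.31% of genes, and the control lower band list Sik1 (1) and Atf3 (1), against 4.88%. Crem, Crtc2 and Creb3l3 had clusters but no enriched peak.

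Slc25a25 encodes an ATP-Mg/phosphate carrier of the inner mitochondrial membrane. Its 8 enriched peaks fell at 7 sites, and 2 of these sites lie at alternative transcription starts inside the gene, and their surroundings are shown because they place the crosslinked RNA relative to those starts and to a CRE. Each line gives the 250 bases before a RefSeq start (GRCm38.p6, minus strand, 5′ to 3′), with the bases of the enriched site in capitals. The first window is chr2:32424067-32424316, and the second is chr2:32431152-32431401, which holds 58 of the 100 bases of its site.
Slc25a25, before the third start: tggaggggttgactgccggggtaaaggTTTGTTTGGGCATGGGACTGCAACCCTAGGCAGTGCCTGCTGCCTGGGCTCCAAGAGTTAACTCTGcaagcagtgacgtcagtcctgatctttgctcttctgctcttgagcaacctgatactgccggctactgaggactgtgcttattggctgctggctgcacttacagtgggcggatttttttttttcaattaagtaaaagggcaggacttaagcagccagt
Slc25a25, before the second start: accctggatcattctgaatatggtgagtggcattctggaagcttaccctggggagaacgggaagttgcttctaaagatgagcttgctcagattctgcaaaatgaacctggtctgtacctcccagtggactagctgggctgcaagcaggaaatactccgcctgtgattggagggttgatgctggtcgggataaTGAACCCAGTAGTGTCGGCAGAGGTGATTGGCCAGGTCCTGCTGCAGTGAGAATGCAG

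The site before the third start spans chr2:32424224-32424289 and holds the row of Slc25a25 in the glucagon upper band list. It lies 158 to 223 bases before the start, inside the first intron of the transcripts that begin further upstream. The full CRE tgacgtca follows the site by 7 bases, at chr2:32424209-32424216, and lies 143 bases before the start. Both strands of the 300-base promoter windows (250 bases before a start and 50 after) were searched for TGACGTCA. It occurs in 1.79% of 32851 windows and in 1 of the 9 windows searched for the members, which is this one. Those windows belong to Creb1, Atf3, Slc25a25, Fosl2, Creb3l3 and Pde4d, and Sik1, Crtc2 and Crem were not searched. The short element TGACG, which the full element contains, occurs in 20.8% of all windows and in 3 of those 9, with 2 matches in this window and 1 each in a window of Atf3 and a window of Creb3l3. A match describes letters of DNA and says nothing about binding.

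In the glucagon upper band libraries the log2 fold at this site was 3.71 and 3.49, with a −log10 p of 7.94 and 9.27. Both glucagon lower band libraries had no cluster there. The control libraries had log2 folds of 1.72 and 1.31 in the upper band and 2.40 in lower band replicate 1, none of them enriched, and no cluster in lower band replicate 2. The site is defined by the enriched peaks of the glucagon upper band, so lower folds in controls follow largely from that choice. The 3 control clusters had a −log10 p of 0.74, 0.61 and 0.86. The peak at the second start, chr2:32431110-32431209, covers the start itself and was enriched in glucagon lower band replicate 2 alone, with a log2 fold of 4.54. Clusters there reached 2.62 in glucagon upper band replicate 2 and 1.53 in control upper band replicate 2.

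Slc25a25 had 1, 4, 0 and 2 enriched peaks in the glucagon libraries (upper band replicates 1 and 2, then lower band replicates 1 and 2), against 0, 0, 1 and 0 in controls, given in that order of band and replicate here and below. The means were 1.75 ± 1.71 with glucagon and 0.25 ± 0.5 in controls (SD, n = 4 each), and the groups overlapped (exact permutation within bands, two-sided p = 0.278). With 36 assignments the smallest p this design can give is 0.0556, so no single gene can pass 0.05 in any test below. Slc25a25 clusters of any fold numbered 33, 49, 15 and 38 with glucagon and 32, 32, 16 and 21 in controls. These overlap, with a difference of 8.5 (exact permutation p = 0.389). Scaling by library was chosen after seeing the data. Counted per 10000 clusters of the library, Slc25a25 had 3.38, 2.36, 5.71 and 2.02 clusters with glucagon and 1.33, 1.23, 1.21 and 1.18 in controls. Every glucagon library lay above every control library (difference 2.13, exact permutation p = 0.0556, adjusted p = 0.421 over all genes with a cluster). This separation was seen in 4.07% of all genes, and in Sik1 and Slc25a25 among the 9 members.

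The split of Slc25a25 clusters around the third start differed between treatments. This cut was chosen after the values were seen and is given without a test or a share of all genes. Downstream of that start lay 21, 25, 13 and 26 clusters in the glucagon libraries, and 8, 9, 8 and 5 in the controls, with no overlap. Upstream of it lay 12, 24, 2 and 12 clusters with glucagon, and 24, 23, 8 and 16 in controls. The downstream share was 63.6%, 51.0%, 86.7% and 68.4% with glucagon and 25.0%, 28.1%, 50.0% and 23.8% in controls. Exonic clusters of the whole gene numbered 72 with glucagon and 36 in controls (exact permutation p = 0.111), and intronic ones 63 and 65 (exact permutation p = 0.778).

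**Figure D1:**
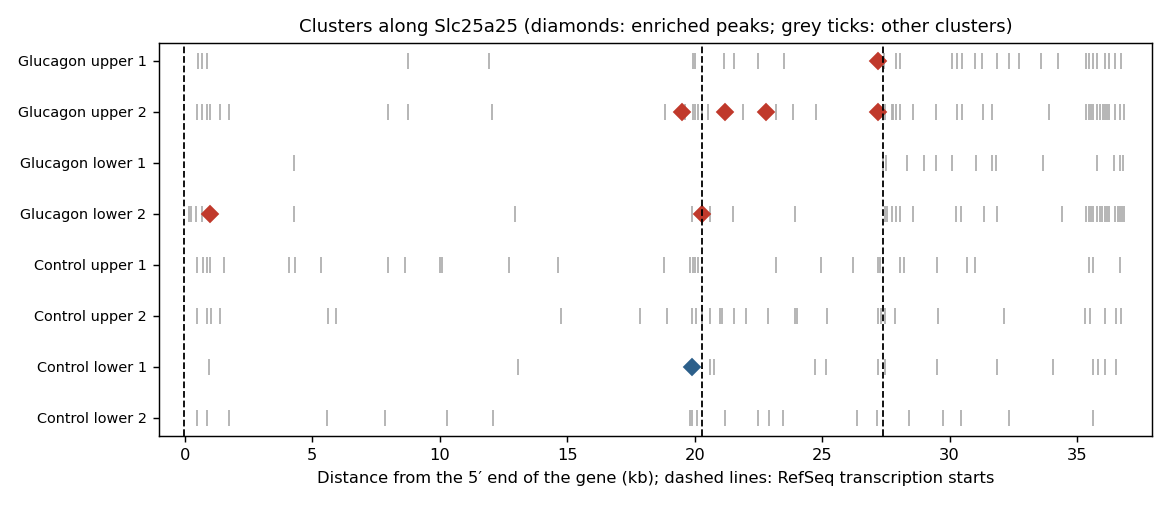
Clusters along Slc25a25 in each IP library, placed by kb from the gene's 5′ end, with enriched peaks as diamonds (red, glucagon; blue, control), other clusters as grey ticks and RefSeq starts as dashed lines. Behind the third start the glucagon libraries have 13 to 26 clusters and the control libraries 5 to 9.

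Sik1, a kinase that restrains CRTC coactivators, held the most enriched peaks of the members. It had 4, 10, 2 and 6 in the glucagon libraries, against 3, 2, 1 and 3 in the control libraries. In the upper band both glucagon libraries were above both controls, and in the lower band the glucagon replicate with 2 peaks lay between the controls' 1 and 3. The means were 5.50 ± 3.42 and 2.25 ± 0.957 (SD, n = 4 each), a difference of 3.25 peaks (exact permutation p = 0.167, adjusted p = 1). Without glucagon lower band replicate 1 every glucagon library had more peaks than every control of its band, for Sik1 and for Slc25a25, where 1.12% of genes with an enriched peak did so. With all 8 libraries 0 members were separated in enriched peaks in either direction, against a background of 0.329% upward and 4.07% downward.

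**Figure D2:**
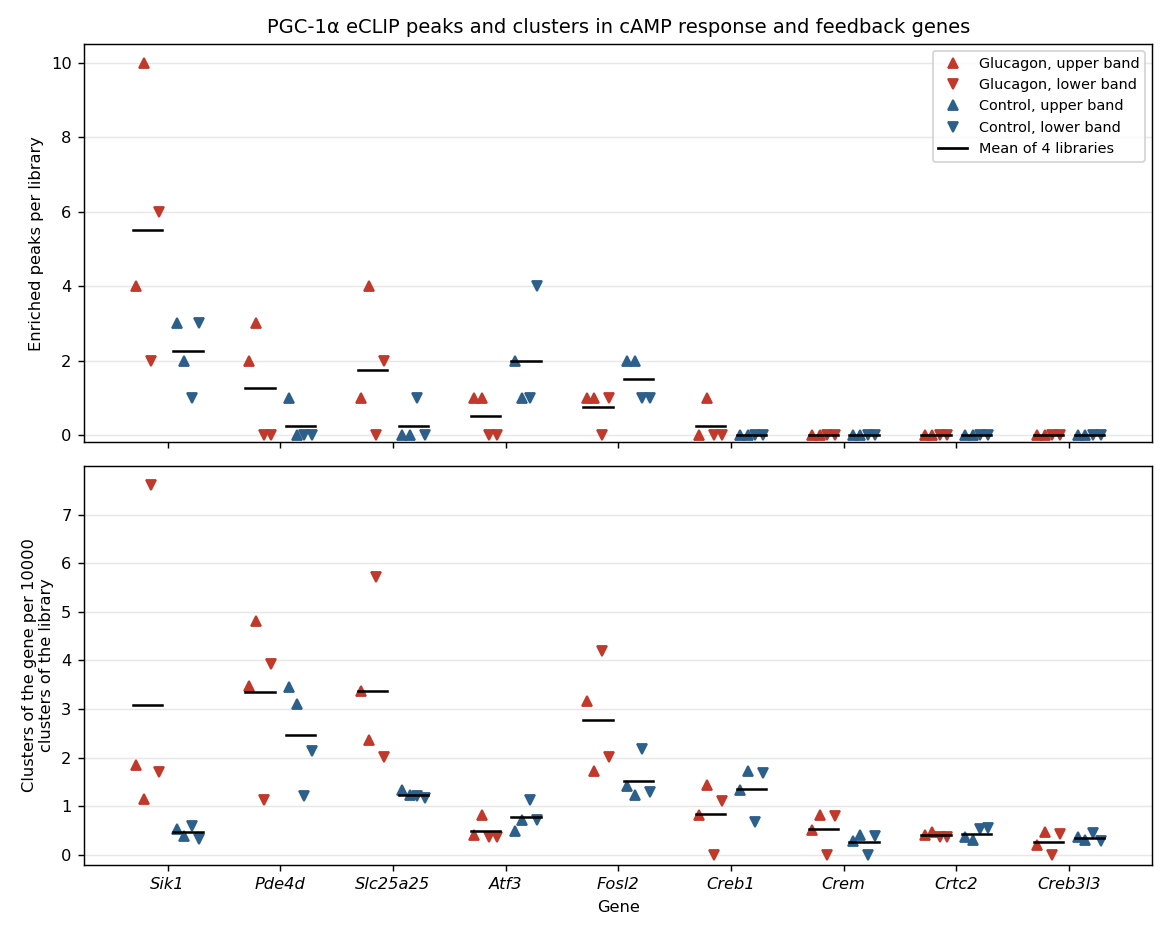
Enriched peaks per library (top) and clusters per 10000 clusters of the library (bottom) for the 9 genes, each point an IP library (glucagon red, control blue; upper band triangles up, lower band triangles down) and each black line the mean of 4. Sik1 and Slc25a25 have all glucagon points above all control points in the bottom panel, and Sik1 in glucagon lower band replicate 1 stands at 7.61.

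The number of Sik1 clusters of any fold was 18, 24, 20 and 32 with glucagon, against 13, 10, 8 and 6 in controls. The 2 treatments did not overlap, and the smallest library, glucagon lower band replicate 1, still gave 20. The means were 23.5 ± 6.19 and 9.25 ± 2.99 (SD, n = 4 each), a difference of 14.25 (exact permutation p = 0.0556, adjusted p = 0.627). Such a separation upward was seen in 0.357% of genes with a cluster and in Sik1 alone among the members, and the downward one in 8.5% of genes and 0 members. Per 10000 clusters the values were 1.84, 1.16, 7.61 and 1.70 with glucagon and 0.542, 0.383, 0.603 and 0.336 in controls. The mean with glucagon, 3.08 ± 3.04 against 0.466 ± 0.127 in controls, was 1.57 ± 0.363 (n = 3) without glucagon lower band replicate 1, and the groups stayed apart.

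Of the 31 enriched peaks of Sik1, 29 lay in its first intron, which is 607 nt long (chr17:31855065-31855671, minus strand, mm10, transcript Sik1-201). Of these, 21 came from glucagon libraries and 8 from controls. Merging overlapping peaks gave 3 sites there that cover most of the intron. The site at its 3′ end, chr17:31855046-31855333, reaches 19 bases into the second exon and was enriched in all 8 libraries. Its highest log2 folds were 3.86, 4.46, 3.47 and 3.77 with glucagon and 3.33, 3.77, 4.14 and 4.31 in controls, which overlap. The middle site, chr17:31855334-31855454, was enriched in 5 libraries, with 3.39, 4.53 and 5.33 in glucagon upper band replicates 1 and 2 and lower band replicate 2, and 4.16 and 4.05 in the control upper band. It had no cluster in the other 3. The site at the 5′ end, chr17:31855486-31855665, begins 6 bases behind the splice donor and was enriched in 4 libraries, 3 with glucagon (3.84, 3.36 and 4.93) and control lower band replicate 2 (4.78).

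Neighbouring peaks in this intron often abut, so a count of peaks partly counts how a covered stretch was divided. Enriched peaks covered 286, 546, 124 and 399 bases of the intron in the glucagon libraries and 235, 216, 100 and 201 in controls. The mean was 339 ± 178 bases against 188 ± 60.3 (SD, n = 4 each), a difference of 151 (exact permutation p = 0.222). The median log2 fold of clusters in the intron was 3.74 ± 0.604 with glucagon and 3.66 ± 0.667 in controls, a difference of 0.076 (exact permutation p = 0.889). The number of clusters in the intron was 6, 9, 2 and 7 against 6, 4, 2 and 2, which overlap (exact permutation p = 0.333). Outside the intron the numbers were 12, 15, 18 and 25 with glucagon and 7, 6, 6 and 4 in controls, with no overlap and the smallest possible p of 0.0556. The measures inside and outside the intron were chosen after the values were seen, and the share of all genes was not computed for them.

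**Figure D3:**
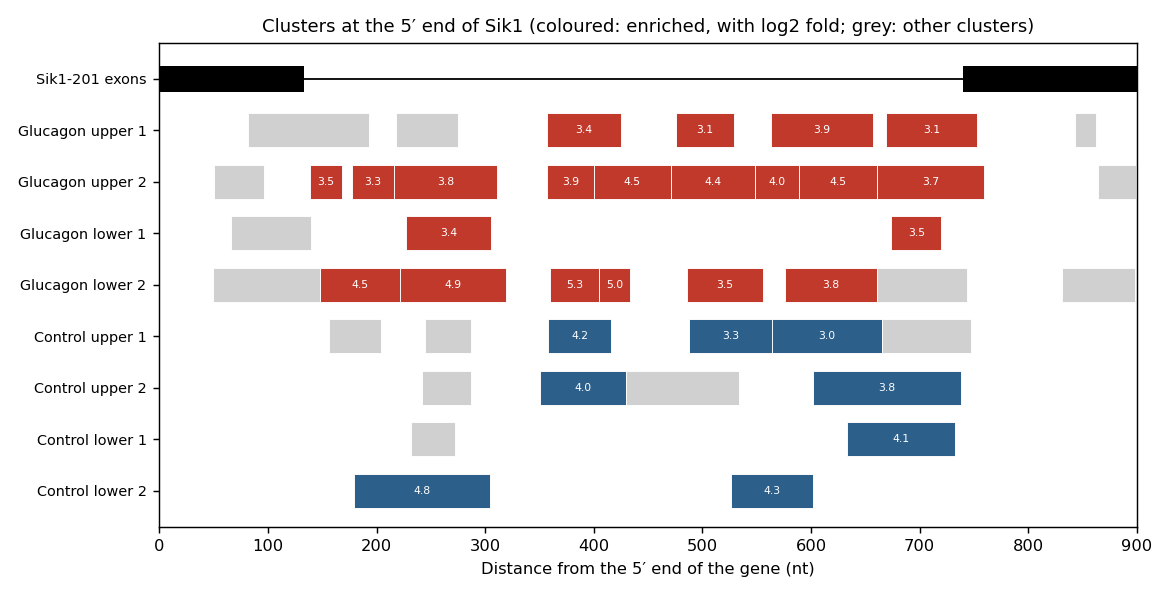
Clusters at the 5′ end of Sik1 in the 8 IP libraries, placed by nt from the gene's 5′ end, with enriched peaks coloured and marked with their log2 fold and other clusters in grey. Enriched peaks lie in the 607 nt intron between the black exons in all 8 libraries, covering 124 to 546 bases of it in the glucagon libraries and 100 to 235 in the controls.

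Exonic clusters of Sik1 sat near the input level. The 53 exonic clusters had a median log2 fold of 0.14, the 78 intronic ones 2.76, and none of the exonic ones was enriched. Their number was 43 with glucagon and 10 in controls, again without overlap between libraries (10.8 ± 5.06 against 2.5 ± 1 per library, SD, n = 4 each, exact permutation p = 0.0556). Intronic clusters numbered 51 and 27, also without overlap within each band (exact permutation p = 0.0556). The share of all genes with such separations in exonic or intronic clusters was not computed. In the other members the libraries of the 2 treatments overlapped in exonic clusters. Their sums with glucagon and in controls were 22 and 5 in Pde4d, 19 and 3 in Crem, 4 and 0 in Atf3, 72 and 36 in Slc25a25, and 61 and 51 in Fosl2. The sums were lower with glucagon in Creb1 (14 and 33), Creb3l3 (12 and 18) and Crtc2 (12 and 15). The exact permutation p of these 8 genes ranged from 0.111 to 0.833.

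**Figure D4:**
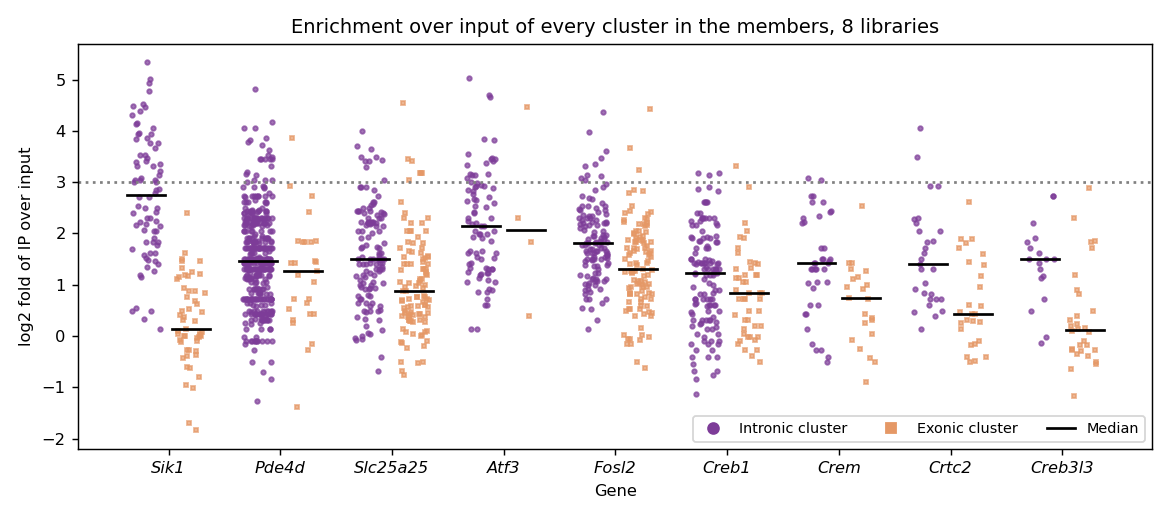
log2 fold over input of every intronic (purple circles) and exonic (orange squares) cluster in the 9 genes, 8 libraries together, with medians in black and the enrichment threshold dotted. Intronic medians lie above exonic ones in each gene, with 2.76 against 0.14 in Sik1 and 2.14 against 2.08 in Atf3, where only 4 clusters were exonic.

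Across the members 59 of 65 enriched peaks were intronic (90.8%), where 85.1% of all enriched peaks were. Introns within 500 nt of an exon held 67.7% of member peaks and 28.3% of all peaks, and deeper introns held 23.1% and 56.8%. Sik1 alone gave 30 of the 44 near-exon peaks. The coding sequence and the 5′ and 3′ UTRs held 0 member peaks, where they held 0.926%, 3.86% and 0.479% of all enriched peaks. Exons of noncoding transcripts held 6 member peaks, 3 each in Slc25a25 and Fosl2. That is 9.23% of member peaks, near the 9.45% of all peaks.

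Atf3 encodes a stress-induced member of the ATF family. It had 1, 1, 0 and 0 enriched peaks in the glucagon libraries, against 2, 1, 1 and 4 in the control libraries. The glucagon values lay at or below the control values in each band, with a tie in the upper band. The means were 0.5 ± 0.577 and 2.00 ± 1.41 (SD, n = 4 each), a difference of -1.5 (exact permutation p = 0.167, adjusted p = 1). Clusters numbered 4, 17, 1 and 7 with glucagon and 12, 19, 15 and 13 in controls (difference -7.5, exact permutation p = 0.111). Per 10000 clusters the upper band difference was -0.00018 and the lower band difference -0.55 (exact permutation p = 0.167 over both).

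All 10 enriched peaks of Atf3 lay in the first intron of the proximal-start transcript Atf3-201 (chr1:191177475-191183092, 5618 nt, minus strand), at sites that begin 86 to 1357 nt behind its splice donor. The site chr1:191182618-191182848 has rows in the control upper band and control lower band lists. Its log2 fold was 3.34 in glucagon upper band replicate 2 and 2.54, not enriched, in glucagon lower band replicate 2, with no cluster in the other 2 glucagon libraries. In controls it was 3.85 and 3.41 in the upper band and 2.77, not enriched, and 3.81 in the lower band. The folds where a cluster existed overlapped between treatments. The site chr1:191182155-191182259 has a row in the control upper band list and was enriched in control upper band replicate 1 (4.66) and lower band replicate 2 (3.47). Clusters at that site without enrichment had 3.44, 2.14 and 3.16 with glucagon, each with a −log10 p under 3, and 2.70 in control upper band replicate 2. The highest fold of Atf3, 5.03 at chr1:191181657-191181735, was found in glucagon upper band replicate 1 alone.

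**Figure D5:**
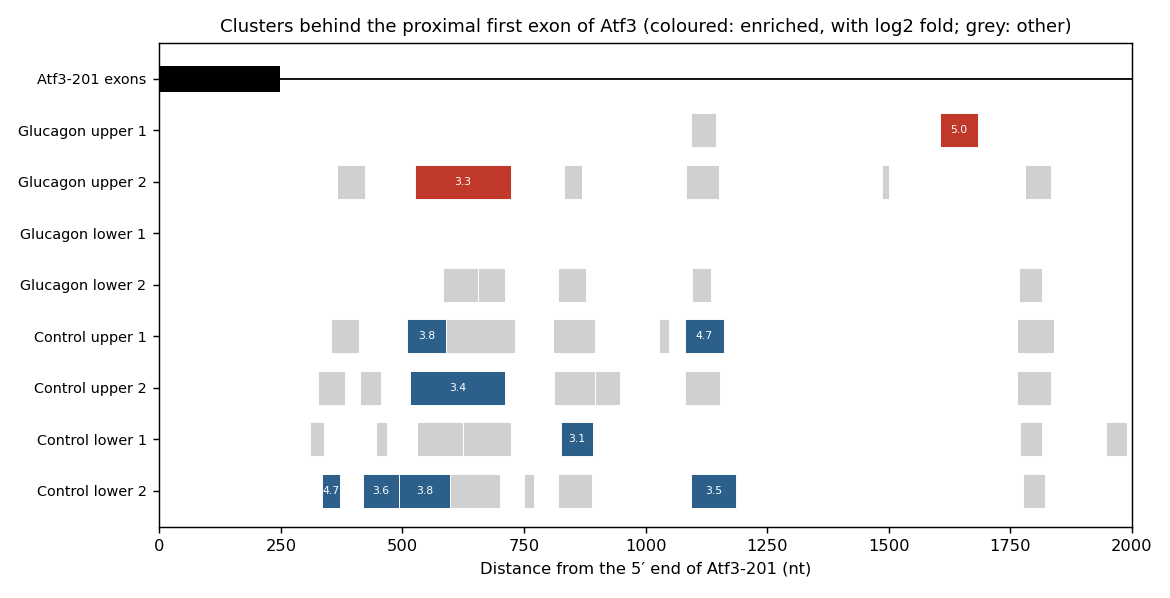
Clusters at the 5′ end of the proximal Atf3 transcript in the 8 IP libraries, by distance from its 5′ end, with enriched peaks coloured and marked with their log2 fold and other clusters in grey. Controls have 8 of the 10 enriched peaks, and glucagon lower band replicate 1 has no cluster in this stretch.

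Pde4d, which encodes a cAMP-specific phosphodiesterase, had 2, 3, 0 and 0 enriched peaks with glucagon, against 1, 0, 0 and 0 in controls. All 6 were in upper band libraries. The means of 1.25 ± 1.5 and 0.25 ± 0.5 (SD, n = 4 each) overlapped (exact permutation p = 0.333). Its clusters numbered 34, 100, 3 and 74 with glucagon and 83, 81, 16 and 38 in controls, a difference of -1.75 (exact permutation p = 1), so the direction depended on the measure. The listed site, chr13:109923310-109923466 (plus strand), lies in intron 8 of the 17-exon transcript Pde4d-209, 19620 nt behind the splice donor. An exon annotated outside that transcript lies within 500 nt, so the site was classed as near an exon. It was enriched in both glucagon upper band libraries (log2 fold 4.18 and 3.46), and control upper band replicate 2 had a cluster there of 1.73. No other library had one. The site chr13:109778626-109778764 was enriched once in each treatment, at 3.53 in glucagon upper band replicate 2 and 3.82 in control upper band replicate 1.

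Fosl2, an AP-1 subunit, had 1, 1, 0 and 1 enriched peaks with glucagon, against 2, 2, 1 and 1 in controls. The means were 0.75 ± 0.5 and 1.5 ± 0.577 (SD, n = 4 each, exact permutation p = 0.167). Its 9 peaks fell at 9 different sites, none of which was enriched in a second library, and it had no row in a list. Of the 31 peaks of Sik1, 16 overlapped an enriched peak of the other replicate of its group. For all members the number was 22 of 65, and 42 of 65 overlapped a cluster of any fold. The share over all enriched peaks was not computed. Most Sik1 peaks lay close together in its short first intron, where overlap comes more easily than among scattered peaks. Of the Fosl2 peaks, 8 lay in the 10019 nt first intron. The 2 nearest the 5′ end of the gene lie in the retained-intron transcript Fosl2-202 and are printed from it (GENCODE M21, GRCm38, plus strand, 5′ to 3′). They show sites enriched in 1 library only, with the peak in capitals and 30 bases on each side. They are chr5:32137702-32137822 and chr5:32138448-32138566. The first site had a cluster in 7 libraries and the second in 4. At the first site the clusters without enrichment had log2 folds of 1.59 to 2.83.
Fosl2 site nearer the start: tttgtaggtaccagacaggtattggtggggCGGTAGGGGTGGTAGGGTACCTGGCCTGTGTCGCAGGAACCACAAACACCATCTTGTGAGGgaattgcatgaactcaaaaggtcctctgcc
Fosl2 second site: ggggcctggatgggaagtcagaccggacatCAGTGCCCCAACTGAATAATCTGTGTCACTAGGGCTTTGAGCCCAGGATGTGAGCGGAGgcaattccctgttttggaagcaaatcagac

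The G and C content of the capitals was 59.0% and 54.2% in these Fosl2 peaks, and 56.1% and 56.9% in those of Slc25a25 at the third and the second start, the last over the 58 bases shown. The 250-base windows of Slc25a25 had 51.6% and 52.0%.

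Creb1, the gene of the CREB factor itself, had 1 enriched peak (chr1:64533555-64533628, log2 fold 3.18, glucagon upper band replicate 2), 534 nt or more behind the first splice donor of its transcripts. Its clusters numbered 8, 30, 0 and 21 with glucagon and 32, 45, 9 and 30 in controls (difference -14.25, exact permutation p = 0.167). Crem, whose internal promoter gives the repressor ICER, had 5, 17, 0 and 15 clusters with glucagon and 7, 11, 0 and 7 in controls (difference 3, exact permutation p = 0.611). Crtc2, the coactivator that SIK1 phosphorylates, had 4, 10, 1 and 7 against 9, 8, 7 and 10 (difference -3, exact permutation p = 0.333). Creb3l3, a liver-enriched factor of the endoplasmic reticulum membrane, had 2, 10, 0 and 8 against 9, 8, 6 and 5 (difference -2, exact permutation p = 0.5). These 3 genes without an enriched peak had 48 to 62 clusters over 8 libraries, against a median of 35 for all genes with a cluster. Without glucagon lower band replicate 1, Pde4d and Crem joined Sik1 and Slc25a25 in lying above every control of their band in clusters per 10000, where 8% of all genes did.

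The upper and the lower band overlapped for each member. Pde4d had 1.5 ± 1.29 enriched peaks in upper band libraries and 0 in all 4 lower band libraries (exact permutation within treatments, p = 0.167). For Sik1 the means were 4.75 ± 3.59 in the upper and 3.00 ± 2.16 in the lower band (SD, n = 4 each, exact permutation p = 0.5). None of the members had every upper band library above or below every lower band library in enriched peaks, against 2.92% and 0.0329% of genes.

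Other genes of the pathway were described from lists of 100 genes without the members, also chosen with earlier results of these data known. Of these, 86 had a cluster, 38 an enriched peak and 21 a row in a reproducible list. Among all genes with a cluster, 23.1% had an enriched peak and 9.38% a row. The listed genes had a median of 96 clusters, against 35 for all genes with a cluster. Their counts, here and for each list below, are not adjusted for how much RNA of each gene was recovered. In clusters per 10000, 15 lay above the controls in every glucagon library and 7 below, against backgrounds of 4.07% and 9.11% of all genes. In enriched peaks, 1 lay above (Klf15, a regulator of amino acid catabolism) and 2 below (Ppp3ca, a calcineurin catalytic subunit, and Myc). The backgrounds were 0.329% above and 4.07% below among all genes with an enriched peak.

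Upstream of cAMP, 10 of 14 receptor, G protein and cyclase genes had a cluster and 4 had list rows: Gnb1 with 13, Gnai2 with 7, Gnas with 5 and Adcy6 with 4. Among the kinase A genes and anchors the rows lay in Akap1, which anchors the kinase at mitochondria (14), Akap13 (2) and Akap2 (1). Akap1 had 4, 12, 1 and 6 enriched peaks with glucagon and 4, 8, 4 and 6 in controls, which overlap. None of the 9 other phosphodiesterase genes had a row, but only 6 of them had a cluster. Of all genes with a cluster, 9.38% had a row in any list, so a count of none in so few genes is near that share. Of the CREB and ATF family Creb3l2 (5) and Crebrf (4) had rows, and of the coactivators Crebbp (1).

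Among kinases related to SIK1 and calcineurin, Ppp3ca had 11 rows, Sik3 7, Prkaa2 3 and Prkaa1 1. Sik3, another CRTC kinase, had 1, 6, 1 and 8 enriched peaks with glucagon and 7, 3, 3 and 7 in controls, which overlap. Ppp3ca had 1, 3, 0 and 1 with glucagon, against 9, 8, 5 and 4 in controls, with no overlap. Such a separation downward was seen in 4.07% of genes with an enriched peak. Myc was the only immediate early gene with rows (10). Of the 18 AP-1 and immediate early genes, 16 had a cluster. In clusters per 10000, 4 of them lay above every control of their band and 3 below, against 4.07% and 9.11% of all genes.

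Of 15 cAMP-induced metabolic genes, 14 had a cluster. In clusters per 10000, 5 were above every control of their band and 0 below, against the 4.07% and 9.11% of all genes. G6pc, the last enzyme of glucose release, had 21, 40, 17 and 29 clusters with glucagon, against 1, 4, 1 and 2 in controls. Pck1, a gluconeogenic enzyme, had 9, 14, 7 and 18 against 1, 1, 1 and 1. These 2 genes had 0 enriched peaks with glucagon, and in controls Pck1 had 1 and G6pc 0. Klf15 had 2, 10, 1 and 7 enriched peaks with glucagon and 0 in every control. In this list the rows lay in Foxo1 (7), Nfil3 (5), Klf9 (5), Klf15 (4), Per1 (1) and Lpin1 (1). Sik1 had both more clusters in every glucagon library and enriched peaks in every library, G6pc and Pck1 more clusters in every glucagon library without an enriched peak there, and Klf15 peaks with glucagon alone.

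The genes whose enriched peaks followed the members most closely over the 8 libraries were found among 1108 genes with peaks in at least 4 libraries. The measure was Pearson's r of log2(peaks + 1), given as a description because all points share the depth of their library. For Sik1 they were Smoc1 (r = 0.952), Cmtm8 (0.911) and Pde10a (0.902). For Slc25a25 they were Ap2a2 (0.918), Plin4 (0.898) and Akt1s1 (0.887). For Atf3 they were Tmem131l (0.972), D5Ertd579e (0.966) and Hnf1aos2 (0.962), and for Fosl2 they were Clcf1 (0.940), Nsd2 (0.939) and Tet3 (0.928). High values follow in part from picking the highest among 1108 genes over only 8 libraries. Some counts were also small, and Akt1s1 had 0 or 1 peak in every library.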

How the data were processed

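The submitters' processing notes name cutadapt, STAR and the build mm10. How clusters were called, and what made a peak reproducible, is not given in the sources used here. All of the 8 IP libraries have a deposited list of clusters, and each of the 4 groups a deposited list of reproducible peaks. The files have no header. Judged from the values, the deposited files give each cluster a −log10 p-value capped at 400 and a log2 fold over input. Both values are the authors' own.

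From these files, clusters were assigned to genes of GENCODE M21 by midpoint and strand. Enriched peaks (−log10 p of at least 3, log2 fold of at least 3) overlapping by 1 base were merged into sites. Where annotations differed, a peak took the class of a coding exon before a UTR, a UTR before a noncoding exon, and any exon before an intron. Intronic peaks were classed as near (500 nt or less from an exon of any transcript) or deeper. Exact two-sided permutation of library labels compared treatments within bands and bands within treatments, with Benjamini-Hochberg adjustment over 3043 genes with an enriched peak or 13181 with a cluster. The test was checked on simulated counts of all clusters, for genes with many clusters and large changes, and the counting on a toy case. That check does not cover counts as small as those of enriched peaks. Coordinates are 1-based. Python 3.11.15, numpy 2.4.6, pandas 2.3.3 and matplotlib 3.10.9 were used.

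The members and lists were chosen with earlier results of these data known. Named were all members, their listed sites, up to 5 genes per list with most reproducible rows (both genes of a tie for the last place), and the 3 genes most like each member with peaks in at least 4 libraries; G6pc and Pck1 were named after their values were seen. Promoter windows came from RefSeq for 6 members outside chromosome 18. Motifs within intronic sites were not searched, since no genome sequence was used. Alternatives covered the fold and p thresholds, scaling by library, the assignment rule, each library left out and a replicate block.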

Additional observations from a re-analysis of the deposited data

Results flagged for a closer look

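Crtc2 had 0.410 and 0.481 clusters per 10000 in the glucagon upper band libraries, and 0.375 and 0.307 in the control upper band libraries, a mean difference of 0.105. In the lower band it had 0.381 and 0.372 with glucagon and 0.528 and 0.561 in controls, with a mean difference of -0.168. The opposite directions in the 2 bands drew attention to this gene. They depend on the scaling by library, which was chosen after seeing the data. Without it the differences in clusters were -1.5 in the upper and -4.5 in the lower band, the same direction in both. The share of all genes with such opposite directions was not computed. The difference between the bands was not tested, and the glucagon counts behind it were 4, 10, 1 and 7 clusters.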

How the results depend on the processing

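For the 6 members with a glucagon difference other than 0, it kept its direction in 86 of 96 repeats, became 0 in 5 and reversed in 5. For the 5 with a band difference other than 0 the numbers were 65 of 80, 6 and 9. None crossed 0.05, which the design does not allow. The glucagon difference reversed for Creb1 at a log2 fold of at least 2 (-0.25) and for all clusters (-14.25), and for Pde4d for all clusters (-1.75). Per 10000 clusters, a scaling chosen after seeing the data, it reversed for Creb1 (-0.51) and Fosl2 (1.25). The upper minus lower band difference reversed for Sik1 at a fold of at least 4 (-0.50), as percent of the library's enriched peaks (-0.037), for all clusters (-0.25) and per 10000 clusters (-1.58). For Slc25a25 it reversed at a fold of at least 4 (-0.25), as percent (-0.0031), per 10000 clusters (-0.45) and without glucagon upper band replicate 2 (-0.25), and for Fosl2 per 10000 clusters (-0.53). The cause was not tested.

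The number of members with every glucagon library above the controls, 0 as reported, was 1 at a −log10 p of at least 5 (0.337% of all genes), as percent (1.05%) and for all clusters (0.357%), 2 per 10000 clusters (4.07%), and 4 per 10000 clusters without glucagon lower band replicate 1 (8%). The number below was 1 at a fold of at least 2 (6.56% of all genes). With each library left out in turn the numbers ranged from 0 to 2 above (0.329% to 1.12% of genes) and from 0 to 1 below (4.17% to 10.3%). Over the same omissions the glucagon difference in enriched peaks ranged from 1.75 to 4.75 for Sik1, 0.75 to 2.25 for Slc25a25, 0.75 to 1.25 for Pde4d, -2.25 to -0.75 for Atf3, -1 to -0.50 for Fosl2 and 0 to 0.50 for Creb1. The band difference ranged from 0.25 to 3.25 for Sik1, -0.25 to 1.25 for Slc25a25, 1.25 to 1.75 for Pde4d, -0.75 to 0.75 for Atf3, 0.50 to 1 for Fosl2 and 0 to 0.50 for Creb1.

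With the replicate number as a replicate block, 1 member (Sik1) lay above within both pairs of each band, as did 0.394% of genes with an enriched peak, and the smallest possible p was 0.125. Deviations of same-numbered libraries correlated between groups by 0.174 to 0.615 over 4210 genes, with only 2 numbers per group, so the block is given here alone. A stricter overlap between peaks gave 6 Sik1 sites, against 5, and the same number in every other member. Depth is known only through cluster number.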
